A study of Mus musculus with 8 samples.

Results

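The genes described here were 10 carriers and regulators of bile acids and organic anions in the mouse kidney. They were the bile acid carriers *Slc10a2*, *Slc51a* and *Slc51b*, the bile acid receptor gene *Nr1h4*, and the organic anion transporting polypeptide (OATP) genes *Slco1a1*, *Slco1a4*, *Slco1a6*, *Slco2a1*, *Slco3a1* and *Slco4c1*. They were chosen by name, and all 10 were found among the 55367 genes of the count table. Of these, 9 were among the 20149 genes that had enough reads to be tested, and *Slco1a1* was not.

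RNA-seq was performed on the whole kidneys of 8 C57BL/6J mice aged 8 weeks, 4 of them *c-Maf* ΔTAM (conditional knockout) and 4 *c-Maf fl/fl* (control). In *c-Maf* ΔTAM mice both floxed alleles of *c-Maf* (gene symbol *Maf*) could be deleted by CAG-Cre-ER TM, a tamoxifen-dependent Cre under a promoter active in nearly all cells, so the deletion was not limited to the kidney. The control mice carried the floxed alleles without Cre, and tamoxifen (TAM) was given to both groups. Hence any effect of TAM itself was shared by both groups, whereas an effect of the Cre protein cannot be told apart from that of the deletion. By the paper, TAM was injected on consecutive days at 8 weeks of age. Its comparison of these groups was made days later, in mice without induced diabetes. Total counts per mouse ranged from 16649129 to 22990257. Values below are CPM, counts scaled to library size and composition. Levels of the members are compared with each other only per kilobase of exon (RPKM). In the other gene lists, the most abundant gene and the largest part of a summed level are by CPM.

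The apical carrier encoded by *Slc10a2* takes bile acids up with sodium, in the ileum and from the filtrate in the proximal tubule. OSTα and OSTβ, encoded by *Slc51a* and *Slc51b*, form the basolateral carrier through which bile acids leave the cell, and FXR, encoded by *Nr1h4*, is the nuclear receptor that senses bile acids. The OATPs exchange steroid conjugates, thyroid hormones, prostaglandins and drugs across the membrane, and several of them differ in level between the kidneys of male and female rodents.

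*Maf* itself was measured first, as a check of the genotypes. It was at 9.06, 34.5, 29.6 and 10.1 CPM across *c-Maf* ΔTAM mice 1 to 4, against 380, 342, 305 and 351 CPM across control mice 1 to 4. The *c-Maf* ΔTAM mice were all far below the control mice, with a log2 fold change of −4.05 (SE 0.51, adjusted *P* = 0.0115, edgeR quasi-likelihood test with Benjamini-Hochberg adjustment over all genes tested). The labels did not state the sexes of the mice, but *Xist*, the RNA that coats the inactive X chromosome, split them into separate sets. High *Xist* counts, of 19408, 18158 and 17618, were found in *c-Maf* ΔTAM mice 2, 3 and 4, and of 19294 and 22387 in control mice 1 and 2. Low counts were 2 in *c-Maf* ΔTAM mouse 1 and 6 and 22 in control mice 3 and 4. The summed level of 4 Y-linked genes (*Ddx3y*, *Eif2s3y*, *Kdm5d* and *Uty*) was the mirror image, at 134 to 146 CPM in the 3 mice with low *Xist* and at most 0.542 CPM in the 5 mice with high *Xist*. Thus 1 of 4 *c-Maf* ΔTAM mice and 2 of 4 control mice had low *Xist*, so that genotype and *Xist* class were partly confounded, and only 1 *c-Maf* ΔTAM mouse represented its class. Because each class was seen in both genotypes, a fit with both terms could separate them in part, and the members were also compared within the 5 mice with high *Xist*.

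The extraction protocol in the labels spoke of liver, whereas the tissue label was whole kidney. Kidney markers were abundant in every mouse, the summed level of 10 markers of the S1 and S2 segments of the proximal tubule being 9147 to 17948 CPM. In contrast, 8 hepatocyte markers summed to only 8.50 to 23.2 CPM, with *Serpina1a* the largest part of the sum on average and *Cyp7a1* at 0 in all mice. The share of counts from the mitochondrial genome was 32.3% in *c-Maf* ΔTAM mouse 1 and 25.5% in control mouse 4, and 17.1% to 22.1% in the other 6 mice. Both of these mice were of the low *Xist* class. With the mitochondrial genes left out of the fit, *Slc10a2* alone of the members was again called (log2 fold change 0.96, adjusted *P* = 0.00119, edgeR quasi-likelihood). No pair of mice within a group agreed within sampling noise, the chi-square per degree of freedom being at least 5.04.

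Among the 9 members tested, 1 was higher in *c-Maf* ΔTAM mice (*Slc10a2*) and none was lower by the edgeR quasi-likelihood test at an adjusted *P* under 0.05. Of all 20149 genes tested, 0.586% were higher and 1.58% lower. At an unadjusted *P* under 0.05, 2 members were higher and 1 was lower, against 6.58% and 7.44% of all genes, and DESeq2, the edgeR exact test and limma-trend each called *Slc10a2* higher and 0 members lower. The values of the 2 genotypes did not overlap for 2 of the 9 members (*Slc10a2* and *Slc51a*), against 9.79% of all genes. The median log2 fold change was −0.19 over the 9 members and 0.0027 over all genes.

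**Figure D1:**
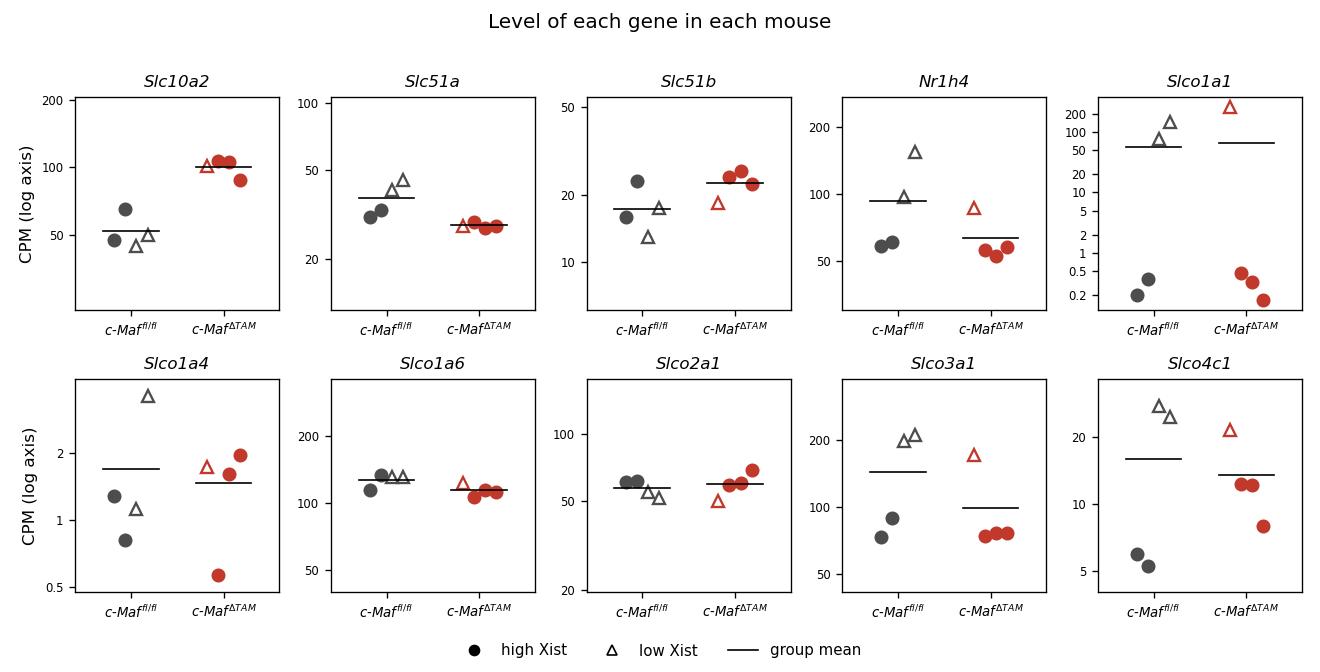
Level of each of the 10 genes in each mouse, in CPM on a log axis, with control (*c-Maf fl/fl*) mice on the left and *c-Maf* ΔTAM mice on the right of each panel. Circles are the 5 mice with high *Xist*, triangles the 3 mice with low *Xist* and lines the group means; *Slc10a2* and *Slc51a* separate the genotypes, and *Slco1a1*, *Slco3a1*, *Slco4c1*, *Nr1h4* and *Slco2a1* separate the *Xist* classes.

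Per kilobase of exon and averaged over all 8 mice, *Nr1h4* was the highest of the members at 33.8 RPKM, *Slco1a6* at 31.8 and *Slc51b* at 28.3. *Slc10a2* followed at 18.3 RPKM, then *Slco3a1* at 14.3, *Slco1a1* at 11.6 and *Slc51a* at 10.3. *Slco2a1* at 4.29 RPKM, *Slco4c1* at 2.99 and *Slco1a4* at 0.246 were the lowest. The spread between mice did not separate the first 3 of this order from each other, since *Nr1h4* alone ranged from 22.9 to 66.9 RPKM, and the order depended on the mouse. *Slco1a1* was first in *c-Maf* ΔTAM mouse 1, at 49.4 RPKM, the third in control mouse 4, at 28.3 RPKM, and last in all 5 mice with high *Xist*, at no more than 0.0876 RPKM. *Slc10a2* was above *Slc51a* in all 4 *c-Maf* ΔTAM mice and in control mice 1 and 2, and below it in control mice 3 and 4.

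Uptake of bile acids from the filtrate was represented by *Slc10a2*. Its level was 101, 107, 106 and 87.9 CPM across *c-Maf* ΔTAM mice 1 to 4, against 47.4, 65.2, 44.3 and 49.6 CPM across control mice 1 to 4. The lowest *c-Maf* ΔTAM mouse was thus well above the highest control mouse, and the single *c-Maf* ΔTAM mouse with low *Xist* lay among the other *c-Maf* ΔTAM mice. The means were 101 ± 8.74 CPM and 51.7 ± 9.30 CPM (SD, n = 4 each), or 24.2 ± 2.10 and 12.4 ± 2.24 RPKM. This was a 1.95-fold higher level, with a log2 fold change of 0.96 (SE 0.12, 95% confidence interval 0.70 to 1.22, adjusted *P* = 0.00124 by the edgeR quasi-likelihood test). In the 5 mice with high *Xist* alone it was 0.83 (95% confidence interval 0.52 to 1.14, adjusted *P* = 0.00846). No difference by *Xist* class was detectable, the class giving a log2 difference of −0.14 beside genotype (SE 0.11, adjusted *P* = 0.495). In whole kidney, fewer cells of a type and less RNA per cell cannot be told apart, here and in all results below.

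The profile of *Slc10a2* was compared with those of all 17500 genes of at least 1 CPM on average. The closest to *Slc10a2*, by the mean absolute difference of standardised log2 CPM over the 8 mice, were *Jam3* (0.116), *B4galnt3* (0.148) and *Gm10787* (0.152). *B4galnt3*, for example, was at 62.2 to 63.7 CPM across the *c-Maf* ΔTAM mice and 41.2 to 49.0 CPM across control mice. Of the 6 other *Slc10* genes, 5 were tested and 0 were called in either direction by the edgeR quasi-likelihood test, DESeq2, the edgeR exact test or limma-trend, with 1 higher at an unadjusted *P* under 0.05. Their median log2 fold change was 0.11. The most abundant, *Slc10a5*, was at 80.3, 64.6, 66.8 and 54.1 CPM across *c-Maf* ΔTAM mice 1 to 4, against 41.9, 58.9, 61.0 and 60.3 CPM across control mice 1 to 4, so the groups overlapped. *Slc10a7* was at 13.3 ± 1.20 CPM across the *c-Maf* ΔTAM mice and 12.4 ± 0.271 CPM across control mice (SD, n = 4 each). *Slc10a3* was at 7.00 ± 0.536 and 5.17 ± 0.817 CPM, with every *c-Maf* ΔTAM mouse above every control mouse but an adjusted *P* of 0.231. *Slc10a1*, which encodes the hepatic uptake carrier NTCP, was near 3.8 CPM in both groups, at 3.76 ± 0.648 and 3.78 ± 1.73 CPM.

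The basolateral carrier was read from its subunits. *Slc51a*, encoding OSTα, was at 28.0, 29.3, 27.6 and 28.2 CPM across *c-Maf* ΔTAM mice 1 to 4, against 30.7, 33.0, 40.6 and 45.3 CPM across control mice 1 to 4. The groups did not overlap, every *c-Maf* ΔTAM mouse being the lower, and the control mice with low *Xist* were the highest of all. The log2 fold change was −0.40 (SE 0.12, 95% confidence interval −0.67 to −0.14), which did not pass the test over all genes (adjusted *P* = 0.132, edgeR quasi-likelihood). It was −0.17 within the mice with high *Xist* (95% confidence interval −0.39 to 0.05), where the difference from 0 was thus not detectable. Beside *Xist* class it was −0.33 in all mice (SE 0.10, adjusted *P* = 0.0580, edgeR quasi-likelihood). *Slc51b*, encoding OSTβ, was at 18.4, 24.2, 25.7 and 22.4 CPM across the *c-Maf* ΔTAM mice and at 16.0, 23.1, 13 and 17.5 CPM across control mice, in the same order. The groups overlapped through control mouse 2, and within each genotype the mice with low *Xist* included the lowest. The log2 fold change was 0.38 (SE 0.17, 95% confidence interval 0.02 to 0.75, adjusted *P* = 0.330 by the edgeR quasi-likelihood test). It was 0.30 within the mice with high *Xist* (95% confidence interval −0.02 to 0.62). By the same test it was 0.29 beside class (SE 0.13, adjusted *P* = 0.197), and the class itself gave −0.37 (SE 0.13, adjusted *P* = 0.0827).

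Since OSTα and OSTβ work as a pair, the ratio of *Slc51b* to *Slc51a* in RPKM was computed after their values were seen. It was 2.96, 3.73, 4.21 and 3.59 across *c-Maf* ΔTAM mice 1 to 4, against 2.35, 3.16, 1.45 and 1.74 in control mice 1 to 4. All but 1 of the *c-Maf* ΔTAM values were above all control values, *c-Maf* ΔTAM mouse 1 lying below control mouse 2. The means were 3.62 ± 0.514 and 2.17 ± 0.756 (SD, n = 4 each; exact two-sided permutation *P* = 0.0571, where 0.0286 is the smallest possible). Within each genotype the mice with low *Xist* had the lowest ratios. The permutation took no account of *Xist* class, so its *P* mixes class with genotype. Reads on bases shared by 2 genes were left out of the counts by the authors, which affected both subunits. *Slc51a* shared 17.7% of its exonic bases with its neighbour *Pcyt1a*, and *Slc51b* shared 12.8% with *Rasl12*, so reads on those bases are missing from both levels.

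*Nr1h4*, encoding FXR, was at 86.4, 56.1, 52.8 and 57.6 CPM across *c-Maf* ΔTAM mice 1 to 4, against 58.2, 61.0, 96.4 and 154 CPM across control mice 1 to 4. The genotypes overlapped, and the 3 mice with low *Xist* were the highest of the 8. For genotype the log2 fold change was −0.55 (SE 0.35, adjusted *P* = 0.554, edgeR quasi-likelihood), and −0.10 within the mice with high *Xist* (95% confidence interval −0.29 to 0.08). For the *Xist* class, fitted beside genotype, it was 0.89 higher in the mice with low *Xist* (SE 0.15, adjusted *P* = 0.00621). Of 16 other bile acid receptors, partners and FXR target genes, 10 were tested and 0 were called for genotype by the edgeR quasi-likelihood test, DESeq2, the edgeR exact test or limma-trend. At an unadjusted *P* under 0.05, 1 was higher and 2 were lower, and the median log2 fold change was −0.02.

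Of these, *Vdr*, the vitamin D receptor gene, was at 241 ± 43.9 CPM across the *c-Maf* ΔTAM mice and 233 ± 54.7 CPM across control mice (SD, n = 4 each). *Aqp2*, the collecting duct water channel gene, was at 181 ± 39.1 and 152 ± 51.6 CPM. *Rxra*, encoding the dimerisation partner of FXR, was at 135, 130, 126 and 122 CPM across *c-Maf* ΔTAM mice 1 to 4, against 140, 139, 176 and 178 CPM across control mice 1 to 4. The groups did not overlap for *Rxra* either, with a log2 fold change of −0.30 and an adjusted *P* of 0.190. *Fgfr4*, a receptor of the FXR-induced hormone FGF15, was at 42.7 ± 3.40 and 41.2 ± 4.06 CPM. *Fgf15* itself and *Abcb11*, the bile salt export pump gene of the liver, had 0 reads in all 8 mice. *Nr0b2*, encoding the FXR-induced repressor SHP, was low, at 2.01 ± 0.847 and 1.54 ± 0.812 CPM. For the *Xist* class, 2 genes of this list were higher (*Vdr* and *Rxra*) and 3 lower (*Nr0b2*, *Nr1i2* and *Sdc1*) in the mice with low *Xist*. Unlike *Nr1h4*, *Nr0b2* was lower in the mice with low *Xist*, with a log2 difference of −1.17 (adjusted *P* = 0.0236, edgeR quasi-likelihood).

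Of 14 genes of bile acid synthesis and conjugation, 10 were tested and 1 was higher in *c-Maf* ΔTAM mice, with a list median log2 fold change of 0.0030. This was *Acox2*, a peroxisomal oxidase that shortens the side chain of bile acid precursors, at 104, 143, 158 and 126 CPM across *c-Maf* ΔTAM mice 1 to 4. It was at 69.8, 84.3, 85.2 and 102 CPM across control mice 1 to 4, so the highest control mouse was just below the lowest *c-Maf* ΔTAM mouse. Its log2 fold change was 0.64 (SE 0.14, adjusted *P* = 0.0387 by the edgeR quasi-likelihood test), and 0.88 within the mice with high *Xist* (adjusted *P* = 0.000266). The call was kept without *c-Maf* ΔTAM mouse 1 or control mouse 4 and missed the threshold without any of the other 6 (adjusted *P* 0.0706 to 0.131), where the log2 fold change was still 0.55 to 0.66. *Slc27a2*, a fatty acid and bile acid precursor ligase, was the most abundant of the list, at 2346 ± 239 and 2707 ± 358 CPM (SD, n = 4 each). *Scp2* was at 165 ± 10.9 and 144 ± 16.6 CPM, *Hsd17b4* at 142 ± 10.4 and 168 ± 12 CPM, and *Amacr* at 89.4 ± 55.1 and 124 ± 79.1 CPM. The groups of *Amacr* mix the *Xist* classes, for which it gave a log2 difference of 1.64 beside genotype (SE 0.12, adjusted *P* = 2.5e-06). *Cyp7b1*, an oxysterol hydroxylase gene of this list, gave 5.80 (SE 0.14, adjusted *P* = 6.6e-12), being at 97.8 to 170 CPM in the mice with low *Xist* and 1.66 to 2.55 CPM in the others. *Slc27a2* and *Akr1d1* were also higher and *Baat* lower in the mice with low *Xist*.

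When *Xist* class was fitted beside genotype, a fit added after the data were seen, 2.98% of all genes were higher and 4.49% lower in *c-Maf* ΔTAM mice, and of the 9 members *Slc10a2* alone was called (adjusted *P* = 0.000121, edgeR quasi-likelihood). In the same fit *Akr1d1* and *Baat* were higher among the synthesis genes, and *Acox2*, with a log2 fold change of 0.63, just missed the threshold (adjusted *P* = 0.0538). *Akr1d1*, encoding the steroid 5β-reductase, was at 27.7, 17.4, 23.1 and 17.2 CPM across *c-Maf* ΔTAM mice 1 to 4, against 8.98, 10.7, 16.8 and 16.1 CPM across control mice 1 to 4. *Baat*, which joins bile acids to taurine, was at 1.07, 10.8, 13 and 9.20 CPM across the *c-Maf* ΔTAM mice and at 3.19, 4.60, 1.12 and 1.47 CPM across control mice. *Akr1d1* did not overlap between genotypes, whereas *Baat* was low in all 3 mice with low *Xist* and, among the others, higher in *c-Maf* ΔTAM mice. The log2 fold changes beside class were 0.88 (SE 0.12, adjusted *P* = 0.000215) and 1.09 (SE 0.30, adjusted *P* = 0.0422). Both were also called higher within the mice with high *Xist*, with log2 fold changes of 0.96 (adjusted *P* = 0.00268) and 1.49 (adjusted *P* = 0.000757), but not in all 8 mice without the class term (adjusted *P* = 0.190 and 0.378).

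The largest range among the members was that of *Slco1a1*, an OATP of the apical proximal tubule that carries steroid conjugates. Its counts were 5119, 9, 6 and 3 across *c-Maf* ΔTAM mice 1 to 4, against 4, 8, 1529 and 2542 in control mice 1 to 4. In CPM these were 260, 0.462, 0.333 and 0.162, and 0.196, 0.361, 77.6 and 149. The gene was thus high in exactly the 3 mice with low *Xist* and at 9 counts or fewer in the other 5, in both genotypes, so that the genotypes overlapped entirely. Because only 3 mice had reads above the minimum, the gene was not in the main test, and on its CPM the exact two-sided permutation *P* for genotype was 0.857 (n = 4 each). Between the control mice with low and with high *Xist*, the summed counts of 4071 and 12 gave a ratio of 393 after scaling, with a 95% interval of 225 to 760 that covers counting error only. In *c-Maf* ΔTAM mice the counts of 5119 and 18 gave a ratio of 810, with an interval of the same kind of 512 to 1368. There the low *Xist* class was 1 mouse. In a fit on all 37792 genes with a read, chosen after seeing the data, the *Xist* class gave a log2 difference of 9.26 (SE 0.40, adjusted *P* = 6.0e-05). In that fit the genotype gave 1.10 beside class (SE 0.38, 95% confidence interval 0.15 to 2.05, adjusted *P* = 0.266), and the interaction of both terms was not detectable (adjusted *P* = 1.00). The value of 260 CPM in *c-Maf* ΔTAM mouse 1 was 2.30 times the mean of the control mice with low *Xist*, but it rests on a single mouse. The genes with the nearest profile were *Eif2s3y*, which is Y-linked (0.0799), *Acat1* (0.0812) and *Scrn3* (0.0830).

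The neighbours of *Slco1a1* on chromosome 6 differed from it. *Slco1a4*, known for the blood-brain barrier and the liver, was low, with counts of 34, 11, 29 and 36 across *c-Maf* ΔTAM mice 1 to 4, against 26, 18, 22 and 61 in control mice 1 to 4. The groups overlapped, and control mouse 4 alone stood above the others. Its log2 fold change of −0.19 (SE 0.50, adjusted *P* = 0.907, edgeR quasi-likelihood) was 0.46 without that mouse. *Slco1a6*, an OATP found mainly in the kidney, was at 124, 107, 114 and 112 CPM across the *c-Maf* ΔTAM mice, and at 115, 134, 131 and 131 CPM across control mice. The groups overlapped, and the log2 fold change was −0.16 (SE 0.08, 95% confidence interval −0.34 to 0.03, adjusted *P* = 0.442). Of its distinct 36-base stretches, 11.4% were also found in other annotated genes, the largest share with a single gene being 3.78% with the *Slco1a*-like gene *Gm6614*, so its level may be incomplete. The corresponding shares were 2.92% for *Slco1a1* and 3.56% for *Slco1a4*.

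*Slco3a1*, encoding a widely expressed OATP that carries prostaglandins and thyroid hormone, was at 171, 74.3, 76.4 and 76.7 CPM across *c-Maf* ΔTAM mice 1 to 4, against 73.7, 89.5, 199 and 212 CPM across control mice 1 to 4. The 3 mice with low *Xist* were all at 171 CPM or above and the other 5 at 89.5 CPM or below. Beside genotype the *Xist* class gave a log2 difference of 1.27 (SE 0.08, adjusted *P* = 1.7e-08, edgeR quasi-likelihood). For genotype the log2 fold change was −0.53 in all mice (SE 0.47, adjusted *P* = 0.698) and −0.11 within the mice with high *Xist* (95% confidence interval −0.31 to 0.09). Its nearest profiles, named after its values were seen, were *Cdx4* (0.0496), *Ces1f* (0.0633) and *Gm7537* (0.0751).

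*Slco4c1*, encoding the basolateral OATP of the proximal tubule that takes up digoxin, thyroid hormone and uremic toxins, was at 21.4, 12.3, 12.1 and 8.01 CPM across *c-Maf* ΔTAM mice 1 to 4. It was at 5.98, 5.28, 27.6 and 24.7 CPM across control mice 1 to 4. The mice with low *Xist* were again the highest, while within the mice with high *Xist* all 3 *c-Maf* ΔTAM mice were above both control mice. In the fit of all mice without a class term the log2 fold change for genotype was −0.23 (SE 0.64, adjusted *P* = 0.918, edgeR quasi-likelihood). In the fit with both terms genotype gave 0.46 (SE 0.27, adjusted *P* = 0.388) and the *Xist* class 1.68 (SE 0.27, adjusted *P* = 0.00453), so the sign for genotype depended on the fit. Among the 5 mice with high *Xist* alone, genotype gave 0.94 (SE 0.21, 95% confidence interval 0.49 to 1.39, adjusted *P* = 0.0179). With *Slc10a2* this made 2 members called higher among those 5 mice, against 1.53% of the 21027 genes tested there. In the mice with low *Xist* the single *c-Maf* ΔTAM mouse lay under both control mice, and the interaction of genotype and class was −1.23 (SE 0.30), which did not pass the test over all genes (adjusted *P* = 0.158). A difference of the genotype effect between the classes was therefore not shown.

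*Slco2a1*, encoding the prostaglandin transporter, was at 49.7, 58.7, 60.4 and 68.7 CPM across *c-Maf* ΔTAM mice 1 to 4, against 60.6, 61.3, 54.5 and 51.4 CPM across control mice 1 to 4. The genotypes overlapped, and the 3 mice with low *Xist* were the lowest of the 8. The log2 fold change was 0.06 (SE 0.11, 95% confidence interval −0.17 to 0.29, adjusted *P* = 0.855) for genotype and −0.26 (SE 0.08, adjusted *P* = 0.0465) for the *Xist* class, both by the edgeR quasi-likelihood test. Of 12 genes of prostaglandin synthesis, export, breakdown and reception, 11 were tested and 0 were called for genotype in all mice by the edgeR quasi-likelihood test, DESeq2, the edgeR exact test or limma-trend. At an unadjusted *P* under 0.05, 2 were higher and 0 lower, and the median log2 fold change was 0.13. *Abcc4*, encoding an exporter of prostaglandins, was at 101 ± 35.9 CPM across the *c-Maf* ΔTAM mice and 140 ± 72.9 CPM across control mice (SD, n = 4 each), both groups mixing the *Xist* classes. Beside class it was lower in *c-Maf* ΔTAM mice, with a log2 fold change of −0.72 (SE 0.09, adjusted *P* = 3.4e-05), and so it was within the mice with high *Xist* (−0.78, adjusted *P* = 0.000489). *Ptger3*, a receptor gene for prostaglandin E2, was at 96.2 ± 20.8 and 67.8 ± 7.77 CPM, with overlapping groups, and was called higher within the mice with high *Xist* (0.68, adjusted *P* = 0.00142) but not beside class (adjusted *P* = 0.156). *Ptgfr* was at 32.8 ± 5.36 and 34.2 ± 6.92 CPM, and *Ptges*, a prostaglandin E synthase gene, at 24.1 ± 7.20 and 24.0 ± 3.27 CPM. For the *Xist* class, 6 genes of this list were lower in the mice with low *Xist* (*Abcc4*, *Ptgfr*, *Ptges*, *Ptgs1*, *Ptgis* and *Hpgd*) and 0 higher, against 5.63% and 6.59% of all genes, and markers of several kidney cell types were lower there too, as given below.

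**Figure D2:**
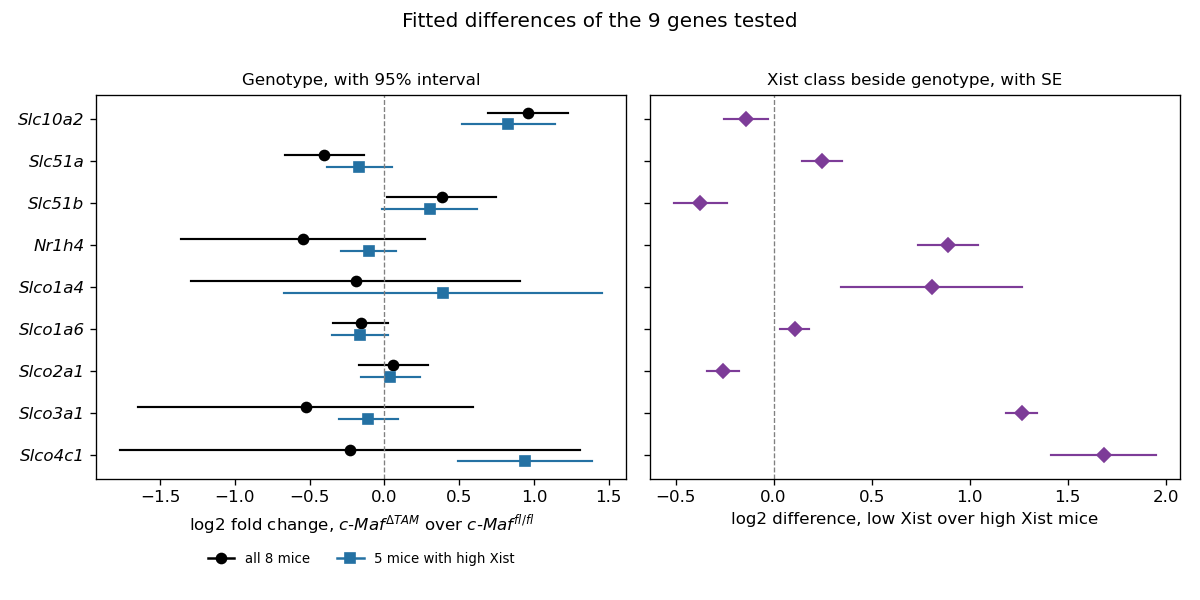
Fitted log2 differences of the 9 members tested: left, *c-Maf* ΔTAM over control mice with 95% confidence intervals in all 8 mice (circles) and in the 5 mice with high *Xist* (squares); right, mice with low *Xist* relative to mice with high *Xist* beside genotype, with SE. *Slc10a2* lies near 1 on the left and near 0 on the right, whereas *Slco3a1* and *Slco4c1* lie above 1 on the right, and the sign of *Slco4c1* and *Slco1a4* on the left differs between the fits.

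Read over the members together, the *Xist* class called more of them than genotype did. Of the 9 tested, 3 were higher in the mice with low *Xist* (*Nr1h4*, *Slco3a1* and *Slco4c1*), against 6.59% of all genes, and 1 was lower (*Slco2a1*), against 5.63%. As a sum, kidney genes known to be higher in males were also high in these 3 mice. The summed level of 6 such genes (*Kap*, the largest part of the sum, with *Cyp2e1*, *Cyp2j13*, *Odc1*, *Slc22a30* and *Acsm3*) was 16129 CPM in *c-Maf* ΔTAM mouse 1 and 9355 and 10188 CPM across control mice 3 and 4. It was 3522 to 4384 CPM across the *c-Maf* ΔTAM mice 2 to 4 and 1920 and 2834 CPM across control mice 1 and 2. All 6 were called higher for the class beside genotype, but *Odc1*, at 60.1 CPM in *c-Maf* ΔTAM mouse 1, was there below control mice 1 and 2, at 60.7 and 62.7 CPM. The summed level of 4 female-high genes (*Prlr*, on average the largest part of the sum, with *Cyp4a14*, *Slc7a12* and *Slc22a29*) was 266 to 309 CPM in the mice with low *Xist* and 721 to 978 CPM in the others. The single genes split less clearly, and *Slc22a29* alone of the 4 was called for the class. *Slc7a12* in *c-Maf* ΔTAM mouse 1, at 236 CPM, was above control mice 1 and 2, at 165 and 227 CPM, and *Cyp4a14* in control mouse 3, at 182 CPM, was above *c-Maf* ΔTAM mouse 4, at 173 CPM. For genotype in all mice without the class term, 0 genes of either list were called by the edgeR quasi-likelihood test, with 0 higher and 1 lower at an unadjusted *P* under 0.05 in the first list and none in the second. DESeq2 and the edgeR exact test each called *Odc1* lower. Beside *Xist* class, however, genotype was called for 5 of these genes. *Cyp2e1* (log2 fold change 1.38, adjusted *P* = 2.0e-07), *Cyp2j13* (1.05) and *Kap* (0.72) were higher in *c-Maf* ΔTAM mice, and *Odc1* (−0.88) and *Slc22a29* (−1.70) lower. Within the mice with high *Xist*, *Cyp2e1*, *Cyp2j13* and *Prlr* were called higher and *Odc1*, *Slc22a29* and *Cyp4a14* lower. The part of these genes in the levels of *Slco1a1*, *Slco3a1*, *Slco4c1* and *Nr1h4* was not tested.

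Of the 9 other *Slco* genes of the table, 2 passed the filter and 0 were called by the edgeR quasi-likelihood test, DESeq2, the edgeR exact test or limma-trend, with 1 higher at an unadjusted *P* under 0.05. *Slco2b1*, encoding a widely expressed OATP, was at 32.6 ± 4.69 and 33.8 ± 3.72 CPM (SD, n = 4 each). *Slco4a1*, encoding a thyroid hormone carrier, was at 32.0, 29.6, 18.8 and 21.0 CPM across *c-Maf* ΔTAM mice 1 to 4, against 16.7, 10.2, 18.7 and 18.7 CPM across control mice 1 to 4. The groups did not overlap, if by a small margin, with a log2 fold change of 0.66 (SE 0.22, adjusted *P* = 0.215, edgeR quasi-likelihood). *Slco4a1* was called by that test once *Xist* class was added (0.78, adjusted *P* = 0.0189), but not within the mice with high *Xist*. The other 7 genes had too few reads to test, among them *Slco1b2*, the OATP gene of hepatocytes, at 24, 0, 0 and 2 counts across *c-Maf* ΔTAM mice 1 to 4 and at most 2 counts in control mice.

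Of 12 genes for efflux pumps and organic anion carriers of the tubule, all were tested and 0 were called for genotype in all mice by the edgeR quasi-likelihood test, the edgeR exact test or limma-trend. DESeq2 called 1 lower (*Abcg2*), 1 was lower at an unadjusted *P* under 0.05, and the median log2 fold change was −0.19. *Abcg2*, encoding an apical urate and drug exporter, was at 190, 185, 167 and 163 CPM across *c-Maf* ΔTAM mice 1 to 4, against 214, 209, 242 and 248 CPM across control mice 1 to 4. These groups did not overlap (log2 fold change −0.37, SE 0.09, adjusted *P* = 0.0642, edgeR quasi-likelihood), and the gene was called lower once *Xist* class was added (−0.33, adjusted *P* = 0.00765). That fit also called *Abcc4* lower and *Abcb1a* higher (0.82, adjusted *P* = 0.0122), while within the mice with high *Xist* the calls were *Abcc4*, *Slc22a8* (−0.97, adjusted *P* = 1.1e-05) and *Abcc2* (−0.41, adjusted *P* = 0.0139), all lower. Others of the list were *Slc22a12* (488 ± 102 and 519 ± 165 CPM), *Slc22a6* (385 ± 129 and 540 ± 227 CPM), *Abcc2* (310 ± 73.7 and 378 ± 19.3 CPM) and *Slc22a8* (210 ± 120 and 439 ± 101 CPM), the *c-Maf* ΔTAM value first (SD, n = 4 each). The genotypes did not overlap for *Slc22a8*, with 31.9 CPM for *c-Maf* ΔTAM mouse 1, 250 to 296 CPM for the other *c-Maf* ΔTAM mice and 337 CPM or more for every control mouse. Its interaction of genotype and class passed the test over all genes (−2.51, SE 0.17, adjusted *P* = 2.2e-06), but it rests on a single *c-Maf* ΔTAM mouse with low *Xist*, as does that of the male-high gene *Slc22a30* (positive, adjusted *P* = 0.0268). For the *Xist* class itself, 5 of the 12 genes were higher in the mice with low *Xist* (*Slc22a12*, *Slc22a6*, *Abcc2*, *Slc17a1* and *Slc17a3*) and 4 lower (*Abcc3*, *Abcc4*, *Abcb1a* and *Abcb1b*). *Abcc3*, encoding a basolateral bile acid exporter, followed the *Xist* class in the direction opposite to *Slco1a1*. It was at 5.44, 177, 195 and 171 CPM across *c-Maf* ΔTAM mice 1 to 4, against 104, 153, 4.87 and 2.40 CPM across control mice 1 to 4, so that the 3 mice with low *Xist* were the lowest (log2 difference −5.09, SE 0.24, adjusted *P* = 7.9e-06, edgeR quasi-likelihood).

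Markers of the cells that carry these genes were read in the same mice. Of 10 markers of the S1 and S2 segments, 5 were lower in *c-Maf* ΔTAM mice by the edgeR quasi-likelihood test (*Slc5a2*, *Slc5a12*, *Slc34a1*, *Slc4a4* and *Slc2a2*) and 0 were higher, with a median log2 fold change of −1.03. DESeq2, the edgeR exact test and the fit with class each called 6 lower, adding *Slc13a3*, limma-trend called the same 5, and within the mice with high *Xist* 7 were lower, adding *Slc13a3* and *Slc22a8*. Their summed level was 9147, 13100, 12663 and 11726 CPM across *c-Maf* ΔTAM mice 1 to 4, against 15891, 17948, 16880 and 16897 CPM across control mice 1 to 4, with *Lrp2* the largest part of the sum on average. Every *c-Maf* ΔTAM mouse lay under every control mouse for this sum, opposite to the direction of *Slc10a2*. The list is not independent of the deletion, since *Slc5a2* and *Slc2a2* encode Sglt2 and Glut2, which the paper reports c-Maf to regulate directly. Whether the lower sum reflects cell number was not tested. *Lrp2* and *Cubn*, encoding the endocytic receptors of the same cells, were at 6759 ± 1548 and 7580 ± 684 CPM and at 1276 ± 65.1 and 1307 ± 94.8 CPM (SD, n = 4 each), and neither was called for genotype. Of 8 markers of the S3 segment, 0 were called in either direction in all mice by the edgeR quasi-likelihood test, DESeq2, the edgeR exact test or limma-trend, with 1 higher and 1 lower at an unadjusted *P* under 0.05. Their sum followed the *Xist* class, at 3513 to 5223 CPM in the mice with low *Xist* and 1291 to 1616 CPM in the others. The single genes did not move together. Beside genotype the class gave log2 differences of 8.17 for *Slc7a13* and 5.80 for *Cyp7b1*. It gave 0.29 for *Slc5a10*, −0.21 for *Slc5a1* and −0.61 for *Slc22a7*, which were not called for the class. Beside class, *Slc5a8* (0.51, adjusted *P* = 0.000301) and *Atp11a* (0.58, adjusted *P* = 0.00580) were higher in *c-Maf* ΔTAM mice and *Slc7a13* lower (−0.57, adjusted *P* = 0.0119). Within the mice with high *Xist*, *Slc5a8* and *Atp11a* were again higher and *Acy3* was lower. The lists for podocytes, collecting duct, thick limb, distal convoluted tubule, fibroblasts, macrophages and lymphocytes had 0 genes called for genotype in the edgeR quasi-likelihood test of all mice. *Krt8* of the tubular injury list was lower (adjusted *P* = 0.00517) and was called by all the other tests and both *Xist* fits. *Kdr* of the endothelial list passed narrowly (adjusted *P* = 0.0450) and was called by DESeq2 and beside class, but not by the edgeR exact test, limma-trend or within the mice with high *Xist*. In the lists without a call, at most 1 gene in each direction had an unadjusted *P* under 0.05. DESeq2 and the fit with class added *Pvalb* of the distal convoluted tubule list. Within the mice with high *Xist*, *Ptger3* of the thick limb list was called higher (log2 fold change 0.68, adjusted *P* = 0.00142, edgeR quasi-likelihood). Of the hepatocyte markers, 4 were tested and 0 called by the edgeR quasi-likelihood test, with 1 higher and 1 lower at an unadjusted *P* under 0.05, while DESeq2 and the edgeR exact test called *Alb* lower, at 1.37 ± 0.830 against 5.65 ± 3.06 CPM (SD, n = 4 each), as did both *Xist* fits, and *Serpina1a* was called higher within the mice with high *Xist*. Of 6 markers of ileal enterocytes, the other site of *Slc10a2*, *Vil1*, which the proximal tubule also makes, was the most abundant, and *Fabp6*, the ileal bile acid binding protein gene, averaged 0.0135 CPM across the *c-Maf* ΔTAM mice and 0 in control mice. For the *Xist* class, markers lower in the mice with low *Xist* were all 5 of podocytes, 3 of 6 of the collecting duct, 2 of 5 of the thick limb, 1 of 4 of the distal convoluted tubule and 3 of 10 of the S1 and S2 segments, where 1 was higher. Of the S3 markers 5 of 8 were higher, and the endothelial, macrophage, lymphocyte and fibroblast lists had 0 called for the class. *Havcr1* of the tubular injury list was also higher in the mice with low *Xist* (log2 difference 2.78, adjusted *P* = 0.0346, edgeR quasi-likelihood). *Vcam1* of that list was lower there (−0.51, adjusted *P* = 0.0328). By the same test *Alb* of the hepatocyte list was lower (−1.40, adjusted *P* = 0.00336) and *Vil1* of the ileal list higher (0.36, adjusted *P* = 0.00558). The part of any of these cell types in the results for the members was not tested.

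The members lie on 7 chromosomes in GRCm38, the build of the count table. *Slc10a2* is at chr8:5083219-5105351, *Slc51a* at chr16:32474504-32487879, *Slc51b* at chr9:65412714-65422955 and *Nr1h4* at chr10:89454234-89533585, all on the minus strand. *Slco1a1* (chr6:141907282-141946962), *Slco1a4* (chr6:141805440-141856199) and *Slco1a6* (chr6:142085761-142208521) form a cluster on the minus strand. *Slco3a1* is at chr7:74275419-74554780 and *Slco4c1* at chr1:96816270-96872171, both on the minus strand, and *Slco2a1* is at chr9:102988712-103096002 on the plus strand. Within the *Slco1a* cluster *Slco1a1* followed the *Xist* class, whereas for *Slco1a6* the class gave a log2 difference of 0.11 (SE 0.07, adjusted *P* = 0.404, edgeR quasi-likelihood).

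Promoter sequences of RefSeq, from 250 bases before to 50 bases after a start of transcription (GRCm38.p6), were found for 9 of the 10 members, all but *Slco3a1*. For 6 of them this start lay within 182 bases of the start of the gene given above, but it lay 26.9 kb inside the gene for *Nr1h4*, 22.4 kb for *Slco1a6* and 19.8 kb for *Slco2a1*, where the sequence at the outer end was not searched. They were searched on both strands for TGCTGA, the core of a Maf recognition element, its longer form TGCTGAC, which contains it, and the AP-1 site TGACTCA. The search also covered AGGTCA, the hexamer bound by many nuclear receptors, GTTAAT, a core of sites of hepatocyte nuclear factor 1, and the inverted repeat IR-1 bound by FXR, with up to 2 mismatches. Of 32851 promoters, 19.5% held TGCTGA, 4.67% TGCTGAC, 5.20% TGACTCA, 16.3% AGGTCA, 7.10% GTTAAT and 1.14% the IR-1 repeat. Among the members, TGCTGA was found in *Slco1a4* only, TGACTCA in *Slc51b* only, and TGCTGAC and IR-1 in none of the 9. AGGTCA was found in *Slco1a1* at 2 positions, and in *Slc51a*, *Slc51b* and *Nr1h4*, and GTTAAT in *Slc10a2* and *Nr1h4*. A match is a description of the letters and not evidence of a bound site.

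The 4 promoters below are those of the member called for genotype, of the pair that forms the basolateral carrier, and of the member with the widest range. They are written 5′ to 3′ along the gene, and capitals mark the matches on either strand. *Slc10a2* (chr8:5105238-5105537, minus strand) holds GTTAAT in reverse, its first base at −217 relative to the start of transcription. *Slc51a* (chr16:32487830-32488129, minus strand) holds AGGTCA in reverse at −58. *Slc51b* (chr9:65422724-65423023, minus strand) holds TGACTCA in reverse at −232 and AGGTCA at −203. *Slco1a1* (chr6:141946913-141947212, minus strand) holds AGGTCA in reverse at −134 and AGGTCA at −24.
Slc10a2 promoter: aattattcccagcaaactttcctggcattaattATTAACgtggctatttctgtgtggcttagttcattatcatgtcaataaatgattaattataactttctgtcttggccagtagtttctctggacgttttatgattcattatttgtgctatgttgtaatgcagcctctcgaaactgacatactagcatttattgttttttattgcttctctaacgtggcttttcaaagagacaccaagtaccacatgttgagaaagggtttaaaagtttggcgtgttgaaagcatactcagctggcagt
Slc51a promoter: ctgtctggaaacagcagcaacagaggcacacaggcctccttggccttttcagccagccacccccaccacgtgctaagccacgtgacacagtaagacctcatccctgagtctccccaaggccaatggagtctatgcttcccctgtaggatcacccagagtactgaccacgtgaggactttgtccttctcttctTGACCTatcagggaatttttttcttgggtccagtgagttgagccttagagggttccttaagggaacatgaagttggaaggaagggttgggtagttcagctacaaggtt
Slc51b promoter: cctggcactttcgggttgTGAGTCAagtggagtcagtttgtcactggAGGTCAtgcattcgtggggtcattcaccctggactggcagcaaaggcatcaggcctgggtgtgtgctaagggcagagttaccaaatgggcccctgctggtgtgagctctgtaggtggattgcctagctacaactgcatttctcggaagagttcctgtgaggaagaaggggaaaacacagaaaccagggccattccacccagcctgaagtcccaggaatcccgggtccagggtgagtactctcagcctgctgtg
Slco1a1 promoter: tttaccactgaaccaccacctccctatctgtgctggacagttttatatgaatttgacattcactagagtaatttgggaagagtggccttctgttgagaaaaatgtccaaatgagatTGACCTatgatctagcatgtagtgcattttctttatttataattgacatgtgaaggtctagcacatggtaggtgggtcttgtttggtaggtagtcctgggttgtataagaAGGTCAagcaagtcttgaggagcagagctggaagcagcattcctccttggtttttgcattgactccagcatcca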

How the data were processed

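Whole-kidney RNA of 8 mice was sequenced as 36-base read pairs after removal of ribosomal RNA. Per the file headers, the authors made the deposited counts per gene with featureCounts 2.0.1 on the exons of Ensembl release 102 (GRCm38), without strand and without reads that match several genes or places. The submitters' processing notes name Subread 2.0.2, and the aligner's settings are not given in the sources used here. Counts without strand cannot separate a gene from an antisense partner. Genes were filtered with filterByExpr and scaled by TMM, and the genotypes were compared with robust quasi-likelihood fits in edgeR 4.0.16 (R 4.3.3) without covariates, with Benjamini-Hochberg adjustment over all genes tested. Alternatives used DESeq2 1.42.0, limma 3.58.1, other scalings and filters, a replicate block, *Xist* terms and the omission of each mouse. Scripts were tested on simulated data. Mice with more than 1000 *Xist* counts were called high. Profiles were compared on log2 CPM with 2 added as prior count. Exact permutation tests ran over the 70 assignments of the mice. The text names *Maf*, all members, each gene of the pathway lists past the threshold with up to 4 others of high CPM, and the 3 nearest profiles of *Slc10a2* and *Slco1a1*; other names (*Slco4a1*, *Slc10a3*, *Rxra*, *Akr1d1*, *Baat*, *Abcg2*, *Abcc3*, *Nr0b2*, *Cyp7b1*, other genes called only by the *Xist* fits, and genes near 0) were chosen after their values were seen. The members and lists were chosen with earlier results of these data known.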

Additional observations from a re-analysis of the deposited data

Results flagged for a closer look

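In 4 of 24 sets of 4 mice (10 members, *Maf* and *Acox2* in each genotype), 1 mouse lay far from the other 3. The measure was the gap from that mouse to the nearest other as a share of the range of the set, held against Dixon's limit, which chance exceeds in about 1 in 20 sets. In *c-Maf* ΔTAM mice the gap was 0.999 of the range for *Slco1a1*, where mouse 1 was at 260 CPM and the others at 0.162 to 0.462 CPM. It was 0.975 for *Slco3a1* (mouse 1 at 171 CPM, the others at 74.3 to 76.7 CPM) and 0.858 for *Nr1h4* (mouse 1 at 86.4 CPM, the others at 52.8 to 57.6 CPM). This mouse was the single *c-Maf* ΔTAM mouse with low *Xist*. In control mice the gap was 0.833 for *Slco1a4*, with mouse 4 at 3.58 CPM and the others at 0.813 to 1.28 CPM, from counts of 61 at most.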

How the results depend on the processing

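*Slc10a2* was higher in *c-Maf* ΔTAM mice under all 20 alternatives (log2 fold change 0.83 to 1.09), and 0 members were lower under any. Among mice with high *Xist*, 2 members were higher. Of 220 values of single genes under alternatives, 194 kept direction and side of the threshold, 11 lost the call (*Maf* 2; *Acox2* 9, at 0.55 to 0.66 against 0.64) and 15 changed sign, none of the latter called in all mice; the cause was not tested. *Slco4c1* changed to 0.087 with limma-trend, 0.034 with the replicate block, 0.41 with log2 *Xist*, 0.46 with *Xist* class and 0.94 within high *Xist*, where it was called, and was −0.54 to 0.18 with 1 mouse left out. *Slco1a4* changed to 0.033, 0.076 and 0.39 under the same *Xist* settings and was −0.43 to 0.46 with 1 mouse left out. *Slco2a1* changed to −0.00044 with log2 *Xist* and −0.0067 with *Xist* class, and was −0.017 to 0.14 with 1 mouse left out. The 118 genes higher and 318 lower became 280 and 556 with DESeq2, 561 and 880 with log2 *Xist*, and 601 and 905 with *Xist* class (added after seeing the data). Genes higher were 214 with the edgeR exact test, 191 with genes of at least 1 count and 322 within high *Xist*. With 1 mouse left out they were 51 to 142 higher and 188 to 310 lower, moving by over 1.5 times without *c-Maf* ΔTAM mouse 2 (58 and 198), mouse 3 (51 and 188) or control mouse 3 (78 and 207), and for genes higher without control mouse 2 (74). The replicate block gave 18 and 111, with *Maf* at −4.28 (adjusted *P* = 0.0516) and *Slc10a2* at 0.97 (adjusted *P* = 0.0185, edgeR). Same-numbered mice correlated at −0.373, 0.152, −0.110 and −0.331. The pair at 0.152 was of like *Xist* class and the others were not, so these values cannot show whether the numbers pair the mice. *Maf* also missed the threshold within high *Xist* (−3.87, adjusted *P* = 0.108), with 5 mice. *Slco1a1* had no tested value to compare; with genes of at least 1 count it gave 0.20 (adjusted *P* = 0.997). Depth limited *Slco1a4*, with 11 to 61 counts, and *Slco1a1* in mice with high *Xist*, with 3 to 9.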
